A study of Mus musculus with 6 samples.

Results

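The miR-143 and miR-145a hairpins are a pair of neighbouring microRNA (miRNA) genes best known from smooth muscle. Their mature products were taken by name from a table of small RNA counts in mouse heart cardiomyocytes. A mature row was chosen when its name without the arm suffix (5p or 3p, the side of the hairpin the strand comes from) was miR-143 or miR-145a, which gave 4 rows of the 1974 mature rows in the table. These were miR-143-3p, miR-143-5p, miR-145a-5p and miR-145a-3p. All 4 were detected in each of the 6 libraries, and all 4 passed the filter on low counts in every test described here. The near-namesake miR-145b is encoded elsewhere and was not a member.

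The libraries came from heart cardiomyocytes, by label, of C57BL/6 mice of 2 genotypes, LncSync-/- (knockout) and wild type, at embryonic day e13.5 and as adults. LncSync is a long non-coding RNA, which a miRNA table does not measure, so its loss could not be checked directly in these counts. Other miRNAs did differ between the genotype labels at e13.5, as given below. Adults had 2 wild-type and 2 knockout libraries, and e13.5 had 1 library of each genotype. Adult age, the form of the deletion and the number of animals behind a library are not in the labels. P-values therefore measure only how far these libraries spread, and that spread may be technical.

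As background, miR-143 and miR-145 are cut from one primary transcript whose promoter answers to serum response factor and its partner myocardin. In vascular smooth muscle they favour the contractile state, miR-145 by repressing Klf4 and Klf5 and miR-143 by repressing Elk1. In the mouse embryo the cluster is also active in the early heart, before it becomes most prominent in smooth muscle.

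In mm10 both hairpins lie on the minus strand of chromosome 18, with 1301 bases between them. Mir143 occupies 61649196 to 61649258 and Mir145a, downstream of it, 61647825 to 61647894. The long non-coding RNA gene Carmn is their host in the RefSeq annotation, where it spans 61645878 to 61665538 and covers both hairpins. In GENCODE, Carmn spans 61649625 to 61665537 and ends 366 bases before Mir143. Bvht (Braveheart), a long non-coding RNA of heart development, lies on the opposite strand at 61639542 to 61647472 in GENCODE, 352 bases past Mir145a. Mir145b lies on the same chromosome at 69022199 to 69022273.

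Mature counts per library ranged from 2671957 in the e13.5 knockout to 17933518 in adult wild-type replicate 1. Levels are given as CPM, a library's counts scaled to a common total. A count of 0 allows up to 3 counts, which stand for 0.167 to 1.12 CPM in these libraries, under every value of the 4 arms. Intervals on counts cover counting error only, since no molecular identifiers are stated. TMM scaling factors, which correct library totals for a few dominant miRNAs, were lowest in adult knockout replicate 2 (0.567) and highest in the e13.5 knockout library (2.17). Against their label, the libraries were checked for cardiac muscle miRNAs. The summed level of that list, on library totals, ranged from 281714 to 395268 CPM in adults, with 10 to 12 of 13 rows detected. At e13.5 it stood at 146153 CPM for wild type (12 of 13 rows) and 98601 CPM for the knockout (8 of 13 rows). There miR-1a-3p made up most of the sum, at 139959 and 94848 CPM, while miR-133a-3p stood at 1925 and 1479 CPM against 121551 to 182883 CPM in adults. The check at e13.5 thus rests mainly on miR-1a-3p. The labels name no dissection, isolation or preparation batch, and such a batch cannot be told apart from stage.

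The main observation on the cluster was that its 2 miRNAs parted between stages. miR-143-3p was the most abundant miRNA of both e13.5 libraries, whereas miR-145a-5p was several times lower there than in adults. Within a library, miR-143-3p outnumbered miR-145a-5p by 13.9 to 30.7 counts to 1 in adults and by 282 and 311 to 1 at e13.5.

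miR-143-3p, the dominant strand of its hairpin, had 1179296 and 1855608 counts in wild-type adults and 1123125 and 1643502 in knockout adults. At e13.5 it had 3128355 counts (wild type) and 562999 counts (knockout). As shares of all mature counts these were 6.58% and 11.0% in adult wild types, 7.83% and 9.33% in adult knockouts, 34.97% at e13.5 in wild type and 21.1% in the knockout. By this measure both e13.5 libraries lay above all 4 adult libraries, at 28.0% ± 9.83 (SD, n = 2) against 8.70% ± 1.93 (SD, n = 4). Among adults both knockouts lay between the wild types.

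The place of miR-143-3p in the order of counts, which depends on the other miRNAs too, also differed between stages. It was first at e13.5 in both genotypes, ahead of miR-21a-5p, a miRNA raised in dividing and injured cells, which had 1355331 counts (wild type) and 507514 counts (knockout). Among adults it was at rank 3 in 3 libraries, next below miR-1a-3p in both wild types and below miR-133a-3p in knockout replicate 2. It was at rank 4 in knockout replicate 1, next below miR-378a-3p. miR-30a-5p came directly after it in all 4 adult libraries. Of the miRNAs named above it, miR-133a-3p had 121551 to 182883 CPM in adults and 1925 and 1479 CPM at e13.5.

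miR-145a-5p, the leading strand of the second hairpin, had 80294 and 77434 counts in adult wild types and 80989 and 53575 in adult knockouts. At e13.5 it had 10065 counts (wild type) and 1999 counts (knockout). Of all mature counts it made up 0.444% ± 0.107 (SD, n = 4) among adults, against 0.0937% ± 0.0267 (SD, n = 2) among e13.5 libraries, with no overlap between stages. Its rank was 32 to 34 among adults, and 55 (wild type) and 81 (knockout) at e13.5.

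The minor strands were far rarer. miR-143-5p had 708 and 928 counts in adult wild types, 856 and 660 in adult knockouts, 256 at e13.5 in wild type and 212 in the knockout. On library totals its e13.5 values of 28.6 and 79.3 CPM lay on either side of the adult range of 37.5 to 59.7 CPM. miR-145a-3p had 15263 and 9543 counts in adult wild types, 6621 and 14351 in adult knockouts, 1084 at e13.5 in wild type and 263 in the knockout. Its e13.5 levels of 121 and 98.4 CPM lay below all adult libraries, which ranged from 461 to 851 CPM.

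**Figure D1:**
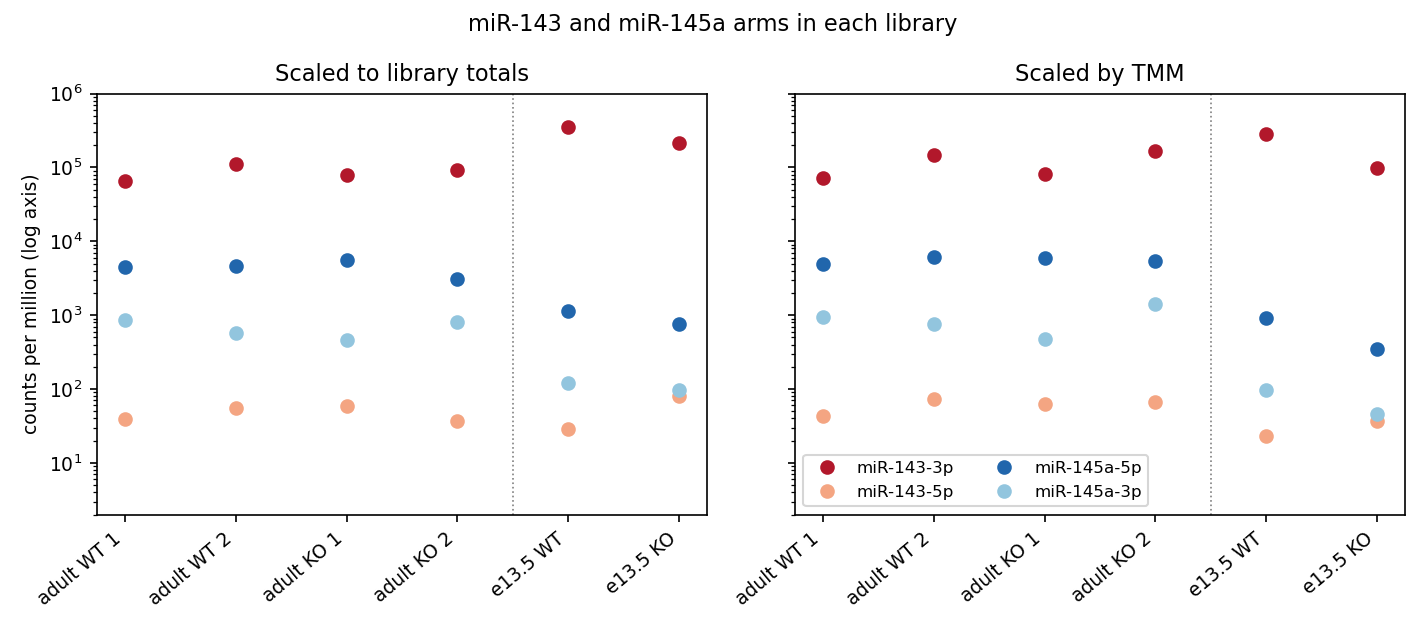
Level of each arm in each library, in CPM on a log axis, scaled to library totals (left) and by TMM (right); WT is wild type, KO is knockout and each point is 1 library. miR-145a-5p and miR-145a-3p are lower in both e13.5 libraries under either scaling, while the e13.5 knockout value of miR-143-3p lies above the adult range only on the left.

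The question of the stage comparison was which miRNAs differ between e13.5 and adult libraries. It was tested over all 6 libraries with genotype in the model (edgeR quasi-likelihood test, TMM scaling, Benjamini-Hochberg adjustment). Of the 679 miRNAs tested, 57.7% passed in either direction at an adjusted p of 0.05 and 28.4% passed as lower at e13.5, so a call by itself does not set a miRNA apart here. Both arms of miR-145a fell and neither arm of miR-143 passed.

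After TMM scaling miR-145a-5p averaged 5574 CPM ± 512 (SD, n = 4) over adults, against 626 CPM ± 397 (SD, n = 2) over the embryonic libraries. The fitted log2 fold was −3.26 (SE 0.55, 95% interval −4.50 to −2.01, edgeR adjusted p = 0.00133), and both e13.5 libraries were below all adults. miR-145a-3p went from 903 CPM ± 403 (SD, n = 4) to 71.5 CPM ± 36.9 (SD, n = 2), and its log2 fold was −3.71 (interval −5.28 to −2.14, SE 0.69, edgeR adjusted p = 0.00211). The log2 fold of the 2 arms was thus alike in sign and size, with intervals that overlap.

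On the same scale miR-143-3p averaged 116258 CPM ± 45903 (SD, n = 4) over adults, against 189497 CPM ± 130396 (SD, n = 2) over the embryonic libraries. Its log2 fold was 0.60 (SE 0.55, interval −0.66 to 1.85, edgeR adjusted p = 0.370). The e13.5 wild-type library, at 281701 CPM, was above every adult, but the e13.5 knockout library, at 97293 CPM, lay inside the adult range of 72884 to 164481 CPM. For miR-143-5p the log2 fold was −1.07 (SE 0.51, interval −2.22 to 0.09, edgeR adjusted p = 0.0989). Leaving out 1 library put it between −1.34 and −0.43. With wild-type libraries alone it was −1.34, and with knockout libraries alone −0.34, each with 1 e13.5 library.

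The call for miR-143-3p depended on how libraries were put on one scale. The median stage log2 fold of all tested miRNAs was −0.06 under TMM, 0.72 under median-of-ratios factors and 0.93 when libraries were scaled to their totals. miR-143-3p had log2 folds of 0.60, 1.38 and 1.66 under these, and passed the edgeR test under the second (adjusted p = 0.0479) and the third (adjusted p = 0.000624). Relative to the median of all miRNAs it was 0.66, 0.66 and 0.73 higher at e13.5. Under TMM, 301 of the 679 tested miRNAs had a higher log2 fold. A change of scaling shifts all log2 folds nearly alike, so a difference from the median stays nearly fixed and is no separate support. miR-145a-5p was 3.19, 3.21 and 3.19 below that median and fell in the edgeR test under each scaling. miR-143-5p had a negative log2 fold with TMM and median-of-ratios factors (−1.07 and −0.28) and a positive one of 0.05 with library totals, and passed under none of these. A single library also decided the miR-143-3p call: without adult knockout replicate 2, the log2 fold was 1.37 (edgeR adjusted p = 0.00493), and on leaving out wild type at e13.5 it was −0.31 (edgeR adjusted p = 0.747). With wild-type libraries alone it was 1.36, and with knockout libraries alone 0.14, each with 1 e13.5 library assumed to vary like the adults.

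The ratio of the 2 miRNAs within a library needs no scaling between libraries. miR-143-3p counts per miR-145a-5p count were 14.7 (exact 95% counting interval 14.6 to 14.8) and 24.0 (23.8 to 24.1) in adult wild types. They were 13.9 (13.8 to 14.0) and 30.7 (30.4 to 30.9) in adult knockouts. At e13.5 the ratio was 311 (305 to 317) for wild type and 282 (270 to 294) for the knockout. The e13.5 libraries were both far above the adults and close to each other, while adult replicates of one genotype differed by more than counting error.

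The mean log2 ratio was 8.21 ± 0.10 (SD, n = 2) at e13.5 and 4.30 ± 0.56 (SD, n = 4) in adults. An exact two-sided permutation test of this difference gave p = 0.0667, which is the smallest p that 2 against 4 libraries can give. Adjusted over the 6 tests of ratios and arm shares it was 0.40. Leaving out any 1 library moved the log2 difference of 3.91 to between 3.74 and 4.12. Between adult genotypes the mean ratios were 22.3 ± 11.9 (SD, n = 2) in knockouts and 19.3 ± 6.56 (SD, n = 2) in wild types (exact permutation p = 1, where 2 against 2 cannot go below 0.333). Counts of the whole hairpins, which hold both arms, gave ratios of 12.3 to 24.2 in adults and 249 and 280 at e13.5.

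**Figure D2:**
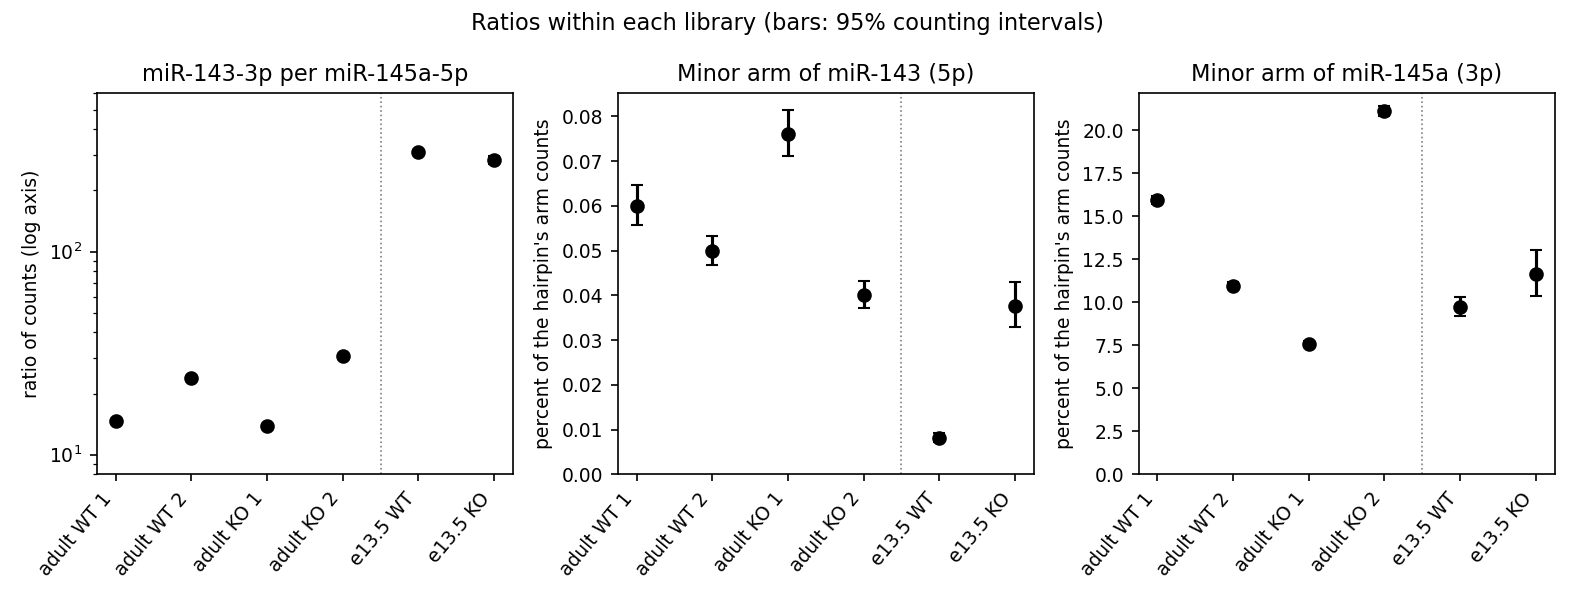
Counts of miR-143-3p per count of miR-145a-5p (left, log axis) and the share of each hairpin's arm counts on its minor arm (middle and right, percent) in each library, with 95% counting intervals as bars. The 2 e13.5 ratios of 282 and 311 stand above the adult range of 13.9 to 30.7, and the minor arm of miR-145a overlaps between stages.

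Arm use was a second measure that does not depend on scaling. miR-143 was almost wholly 3p: the 5p arm held from 0.0401% to 0.0762% of its arm counts over the adults, both ends in knockouts. At e13.5 it held 0.00818% (Wilson 95% interval 0.00724 to 0.00925) in wild type and 0.0376% (0.0329 to 0.0431) in the knockout, whose interval overlaps that of adult knockout replicate 2 (0.0372 to 0.0433). Both e13.5 shares lay below those of all adults. The stage difference gave an exact permutation p of 0.133 (two-sided, n = 2 and 4, adjusted 0.40), in a test that could not go below 0.0667.

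miR-145a was more balanced, with 16.0% and 11.0% of arm counts on 3p in adult wild types and 7.56% and 21.1% in adult knockouts. The e13.5 shares of 9.72% in wild type and 11.6% in the knockout fell inside this adult range (exact permutation p = 0.60, n = 2 and 4). Adult knockout replicates held the lowest and the highest share of all 6 libraries. Over 104 hairpins with 2 named arms and at least 100 arm counts in every library, the median minor-arm share in adults was 1.70%, so miR-143 lay below and miR-145a above it. Reads outside the named arms were at most 0.0896% of a hairpin's counts.

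The divergence of the cluster was set beside that of other neighbouring hairpins, a comparison chosen after these values were seen and given without a test. Pairs were hairpins on one strand at most 10000 bases apart whose leading arms each averaged at least 100 CPM on library totals. After 5 pairs with a 0 count were left out, 39 remained, built from 45 arms, so many pairs share an arm. The absolute stage shift of the log2 ratio had a median of 1.19, and the miR-143-3p and miR-145a-5p pair, at 3.91, was at rank 3. The e13.5 and adult ratios did not overlap in 23 pairs, or 59.0%. Ahead of it were miR-181d-5p with miR-181c-5p (4.22) and let-7e-5p with miR-125a-5p (4.09). Close behind were miR-99b-5p with miR-125a-5p (3.82) and miR-30b-5p with miR-30d-5p (3.79), and miR-221-3p with miR-222-3p was at rank 6 (3.05). With hairpin counts the shift of miR-143 and miR-145a was 3.97, again at rank 3, while the pair at rank 1 was miR-450b with miR-542 (4.18).

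**Figure D3:**
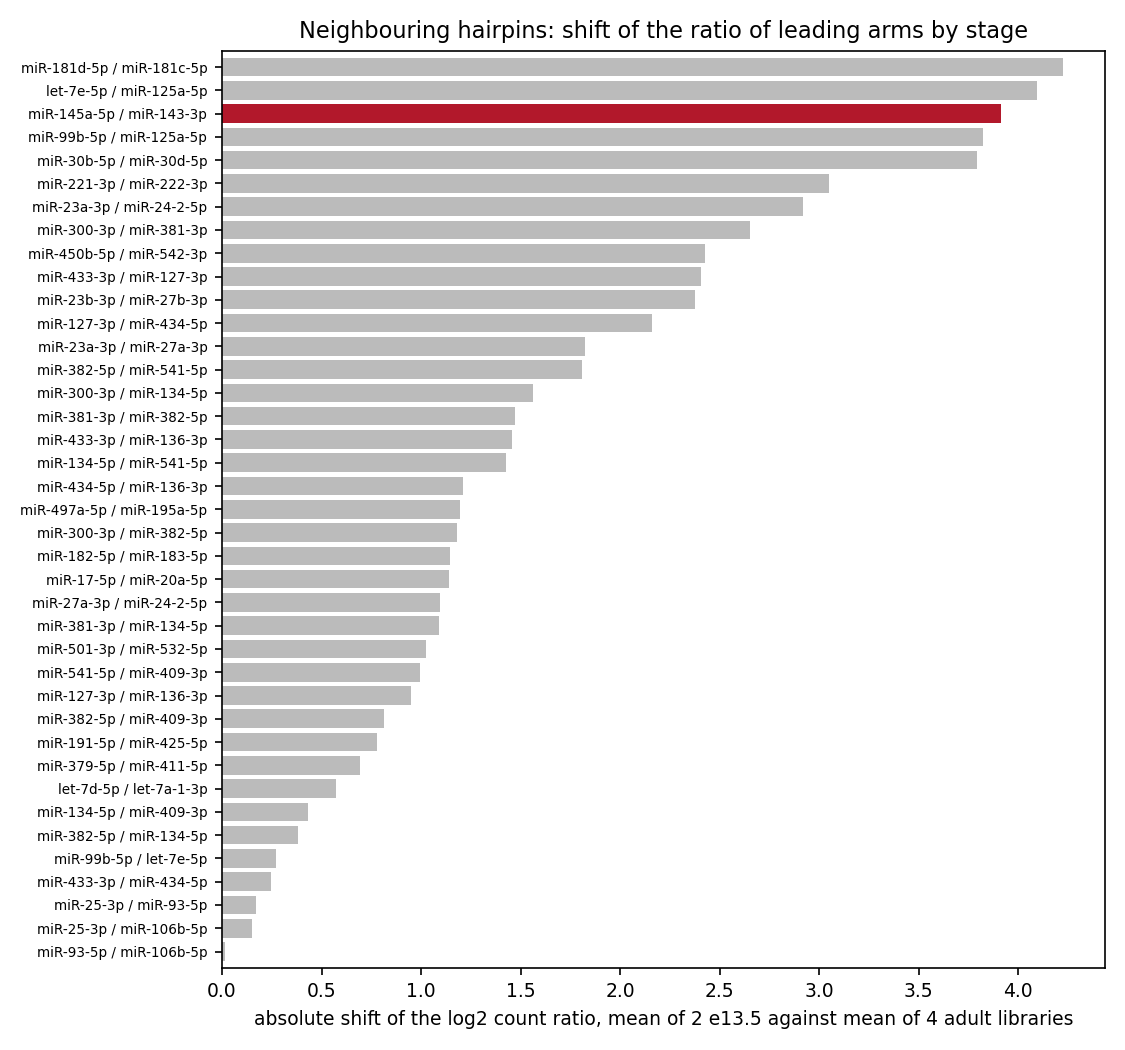
Absolute difference between stages in the log2 ratio of leading-arm counts for 39 pairs of neighbouring hairpins, mean of 2 e13.5 against mean of 4 adult libraries, with the miR-143 and miR-145a pair in red. The pair stands at rank 3 with 3.91, against a median of 1.19.

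The sequences of the pairs miR-181d with miR-181c, let-7e with miR-125a and miR-221 with miR-222 show how alike they are. They are RefSeq mature sequences on GRCm38.p6, written 5′ to 3′ with the seed, bases 2 to 8, in capitals. The RefSeq table held 16 of the 19 comparison miRNAs sought and 0 of the 4 members. miR-181c and miR-181d have one seed, as do miR-221 and miR-222. Counted from the 5′ end without gaps, these pairs were identical at 11 of 22 and 11 of 23 positions. Such a count misses matches that are offset in position, so it can understate how alike the pairs are. A shared seed does not by itself make reads of this length ambiguous. How the counting treated similar miRNAs is not given, so sharing of reads was not tested. let-7e and miR-125a have different seeds.
miR-181d-5p: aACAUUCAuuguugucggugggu
miR-181c-5p: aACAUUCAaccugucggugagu
let-7e-5p: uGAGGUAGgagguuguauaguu
miR-125a-5p: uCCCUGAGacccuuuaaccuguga
miR-221-3p: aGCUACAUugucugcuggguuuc
miR-222-3p: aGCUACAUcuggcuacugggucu

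Other miRNAs with profiles like the members were named by the smallest root mean square difference in log2 TMM-scaled CPM, each profile centred on its mean over the 6 libraries. Profiles were compared for 159 miRNAs with a mean of at least 100 CPM and no 0 count. Nearest to miR-143-3p was miR-872-5p, at a difference of 0.28, followed by miR-140-5p (0.36), miR-192-5p (0.45), miR-199a-5p (0.47) and miR-101a-3p (0.54). miR-199a-5p, a mesenchymal miRNA, had 487 to 928 CPM in adults on library totals and 2531 CPM (wild type) and 1842 CPM (knockout) at e13.5. miR-872-5p had 88.2 to 114 CPM in adults, and 371 and 190 CPM at e13.5. On the centred TMM scale used for likeness, only the e13.5 wild-type library stood above all adults for these 2. In the e13.5 knockout miR-199a-5p was at −0.14, inside the adult range of −0.89 to 0.13. There miR-872-5p was at −0.63, below the adult range of −0.47 to 0.26.

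Nearest to miR-145a-5p were miR-30e-3p (0.21), miR-27b-3p (0.21), miR-378d (0.30), miR-186-5p (0.30) and miR-181a-5p (0.34). miR-27b-3p had 14912 to 18614 CPM in adults and 4475 and 2508 CPM at e13.5. By the same measure miR-145a-5p was 85th of 158 miRNAs in likeness to miR-143-3p, at a difference of 1.89. Its own 3p arm was at 0.56. These distances describe 6 libraries that share their scaling, and carry no test. The nearest miRNA to each leading arm is printed here from RefSeq on GRCm38.p6 with the seed in capitals. The 2 seeds differ from each other, and were not compared with those of the members, whose sequences were not available.
miR-872-5p: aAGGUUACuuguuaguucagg
miR-30e-3p: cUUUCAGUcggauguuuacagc

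**Figure D4:**
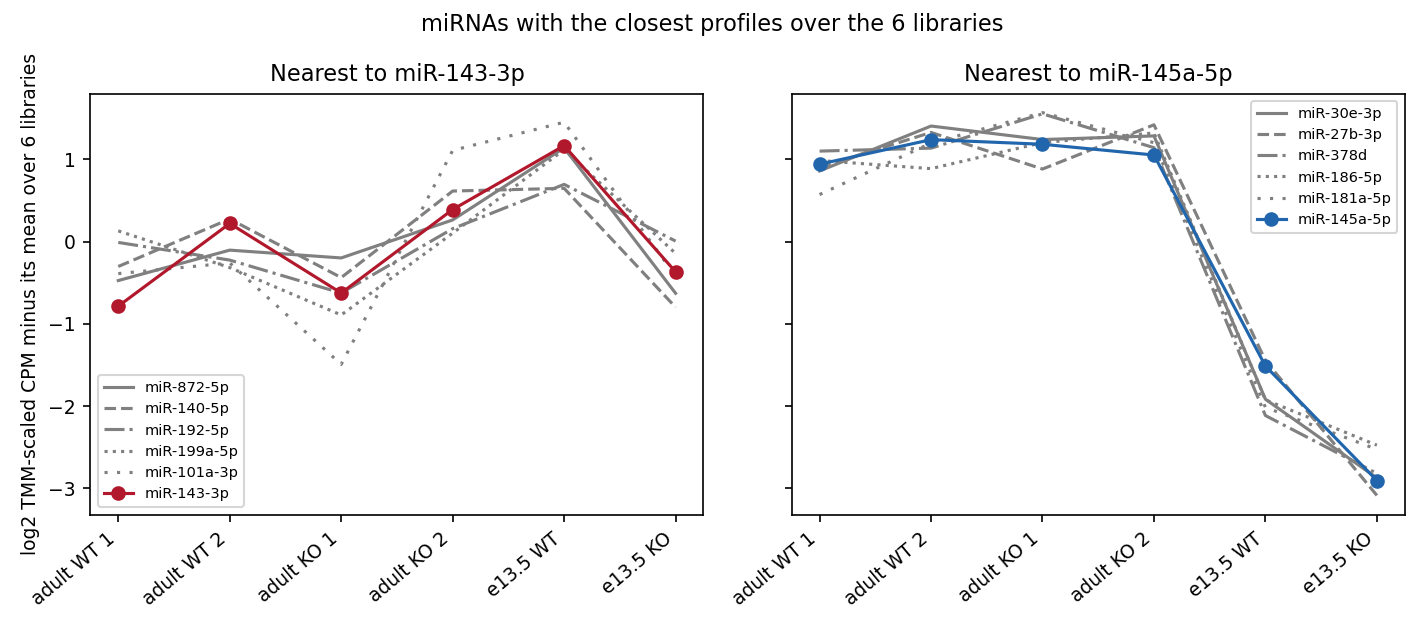
Log2 TMM-scaled CPM minus the mean over the 6 libraries for miR-143-3p (left) and miR-145a-5p (right) in colour and the 5 nearest miRNAs in grey; lines join libraries only to guide the eye. miR-145a-5p and its neighbours are high in the 4 adult libraries and low in both at e13.5, whereas miR-143-3p is highest in the e13.5 wild-type library.

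The question of the genotype comparisons was whether loss of lncSync goes with a difference in these miRNAs. In adults none of the 4 arms passed (edgeR, 4 libraries), against 0.735% of 544 miRNAs tested. None had an unadjusted p under 0.05, and DESeq2 and limma called 0 of 4 as well. TMM-scaled over all 6 libraries, miR-145a-5p had 4962 and 6103 CPM in wild types and 5870 and 5362 in knockouts, with the knockouts between the wild types. miR-143-3p had 72884 and 146259 CPM in wild types and 81408 and 164481 in knockouts, so each genotype had 1 lower and 1 higher library and the genotypes overlapped.

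The adult log2 folds, knockout against wild type, were 0.23 for miR-143-3p (SE 0.52, 95% interval up to 1.46) and 0.09 for miR-145a-5p (SE 0.40, interval −0.86 to 1.04). They were 0.20 for miR-143-5p (interval −0.89 to 1.28) and 0.24 for miR-145a-3p (interval −1.12 to 1.59). Each had an edgeR adjusted p of 0.999. Single libraries turned these directions: miR-143-3p ran from −0.41 without knockout replicate 2 to 0.69 without wild-type replicate 2, and was −0.21 without wild-type replicate 1. miR-145a-3p was 0.82 without knockout replicate 1, −0.83 without knockout replicate 2 and −0.05 without wild-type replicate 2. Without wild-type replicate 1, miR-143-5p was −0.15 and miR-145a-5p −0.07. The median log2 fold of all tested miRNAs was 0.08. The intervals are wide in both directions, so these libraries do not show that the levels are alike. With library totals the folds of miR-143-3p, miR-145a-5p and miR-145a-3p were negative, at −0.04, −0.07 and −0.15.

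At e13.5, where each genotype had 1 library, differences have no replicate check. The knockout to wild-type CPM ratio on library totals was 0.602 for miR-143-3p (95% counting interval 0.601 to 0.604), 0.665 for miR-145a-5p (0.633 to 0.698) and 0.812 for miR-145a-3p (0.707 to 0.930). For miR-143-5p it was 2.77 (2.30 to 3.34), so the strands of this hairpin lay on opposite sides of 1. After TMM scaling the log2 folds were −1.53, −1.39, −1.10 and 0.66 in that order, beside a median of −0.41 over 565 miRNAs. None of the 4 arms was at least 4-fold apart, against 17.3% of those 565 miRNAs, 8.14% higher and 9.2% lower in the knockout. Summed erythroid markers, with 5 of 5 rows detected, also differed, at 748 CPM for wild type and 14321 CPM for the knockout, as did the TMM factors of 1.24 and 2.17. Their part in the differences was not tested.

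Averaged over stages, knockout against wild type gave log2 folds of −0.39 for miR-143-3p (SE 0.53) and −0.44 for miR-145a-5p (SE 0.44), with an edgeR adjusted p of 0.989 for both. Leaving out 1 library put them between −1.02 (without adult knockout replicate 2) and 0.16 (without wild type at e13.5) for miR-143-3p, and between −0.67 and 0.00 for miR-145a-5p, without those same libraries. None of the 4 arms passed, or had an unadjusted p under 0.05, by edgeR, DESeq2 or limma, beside 0.736% of 679 miRNAs called by edgeR. An interaction term compared the knockout difference at e13.5 with that in adults. Of 769 miRNAs edgeR called 0 (0%), although 46 had an unadjusted p under 0.05, and DESeq2 called 4. The interaction was −1.69 for miR-143-3p (SE 0.95, interval −3.83 to 0.45) and −1.40 for miR-145a-5p (SE 0.77, interval −3.13 to 0.33), each at an edgeR adjusted p of 0.875. None of the 4 arms had an unadjusted p under 0.05 in that fit or by DESeq2 or limma. Without adult knockout replicate 1 the miR-143-3p interaction was −2.14 and passed (edgeR adjusted p = 0.000462), as did miR-145a-3p (−1.89, edgeR adjusted p = 0.0154), with the spread taken from the adult wild types alone.

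The stage difference of the cluster was set beside a list of miRNAs with known roles in smooth muscle and mesenchymal cells, which was chosen with results of these data known. Besides the members it held 38 mature rows, of which 32 were tested. Between stages 18 fell at e13.5, 4 rose and 10 did not pass (edgeR), or 56.2% lower and 12.5% higher, against 28.4% and 29.3% of all miRNAs tested. The list's median log2 fold was −2.30, beside −0.06 for all tested. Under median-of-ratios factors 7 rose and 14 fell, and under library totals 7 rose and 13 fell.

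Over all miRNAs the higher share of calls was 50.8% under TMM, 64.4% under median-of-ratios factors and 68.7% under library totals. Among miRNAs linked to the contractile state, 8 of 11 tested arms fell and 1 rose under TMM, 6 fell and 2 rose under median-of-ratios factors, and 5 fell and 2 rose under library totals. The 8 under TMM included the minor arms miR-100-3p, miR-10a-3p and miR-1a-1-5p (log2 folds −4.58, −2.02 and −5.21), whose leading arms did not pass as lower. miR-100-3p averaged only 35.3 counts a library. miR-133a-3p and miR-133b-3p, which are also cardiac muscle miRNAs, fell by 7.54 and 8.50 on the log2 scale (edgeR adjusted p = 9.11e-05 and 9.81e-05). miR-10a-5p rose, from 354 to 1127 CPM in adults on library totals to 3556 and 5758 CPM in the embryonic libraries (log2 fold of 1.60, edgeR adjusted p = 0.0281). miR-100-5p and miR-1a-3p did not pass, at log2 folds of 0.89 and −1.54. miR-204-5p fell (edgeR adjusted p = 0.00912), and miR-145b fell by 4.84 from at most 38 counts in a library.

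Among miRNAs linked to dividing smooth muscle, 10 of 16 tested arms fell and 2 rose under TMM, and 8 fell and 2 rose under each of the other scalings. miR-221-3p and miR-222-3p, which repress the cell cycle inhibitor p27 and were printed above with their shared seed, fell by 6.93 and 3.75 on the log2 scale. miR-24-3p, miR-146a-5p, miR-31-5p and miR-26a-5p fell by 4.80, 4.90, 4.29 and 2.58. miR-21a-5p (log2 fold 3.42, SE 0.59) and miR-146b-5p (log2 fold 1.37) rose, at edgeR adjusted p-values of 0.00141 and 0.0325. Of 5 mesenchymal arms 1 rose, miR-199b-5p (log2 fold 2.25, edgeR adjusted p = 0.00887), and none fell under TMM, while 3 rose and none fell under median-of-ratios factors and under library totals. miR-199a-3p and miR-214-3p had log2 folds of −1.40 and −1.23 and did not pass. In adults no arm of the list passed between genotypes by edgeR, DESeq2 or limma, and none had an unadjusted p under 0.05.

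**Figure D5:**
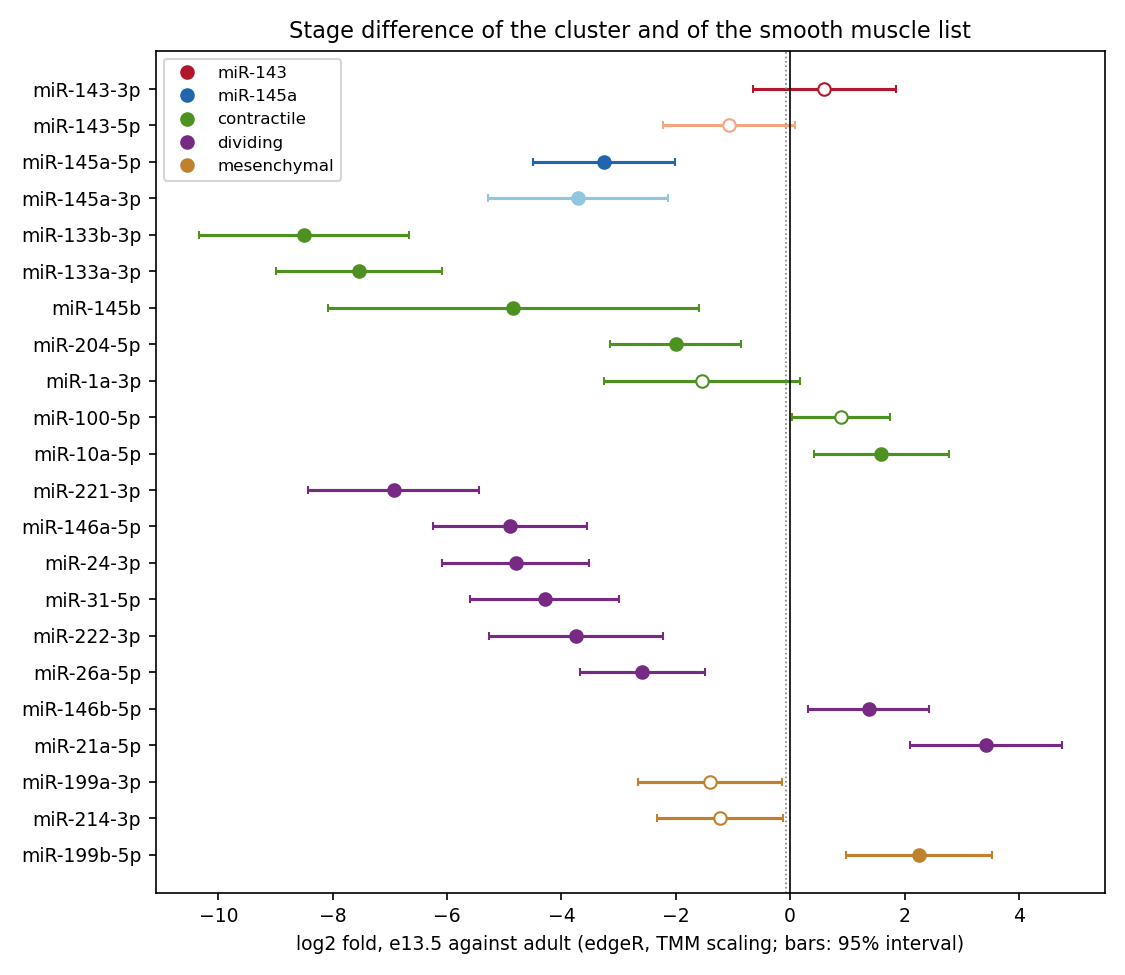
Fitted log2 fold of e13.5 against adult libraries (edgeR, TMM scaling) for the 4 members and the most abundant tested arm of each list miRNA, with 95% intervals as bars; filled points passed at an adjusted p of 0.05 and the dotted line is the median of all 679 miRNAs. Both miR-145a arms lie to the left of 0 with the intervals of both miR-143 arms crossing it.

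Among markers of other cells, on library totals, the leukocyte list was lower in both e13.5 libraries than in every adult. On that scale the endothelial, fibroblast and erythroid lists each had at least 1 e13.5 library inside the adult range. These sums were not scaled by TMM. Its factors were 1.24 and 2.17 at e13.5 and at most 0.962 in adults, so TMM would place the e13.5 sums lower relative to adults. Summed endothelial markers (2 or 3 of 4 rows detected, led by miR-126a-3p) ranged from 16487 to 31068 CPM on library totals in adults and stood at 18992 and 16343 CPM at e13.5 in wild type and knockout. Fibroblast and mesenchymal markers, led by miR-199a-3p, ranged from 1932 to 3708 CPM in adults and were at 4733 and 3226 CPM at e13.5, with all 5 rows detected in every library. Leukocyte markers, led by miR-150-5p with 7 or 8 of 8 rows detected, ranged from 998 to 2136 CPM in adults and were at 66.4 and 128 CPM at e13.5. Erythroid markers, led by miR-486a-5p, ranged from 5651 to 22276 CPM in adults, with the e13.5 values of 748 and 14321 CPM below and inside that range. On library totals miR-143 and miR-145a together, which are the smooth muscle markers here, ranged from 71127 to 115721 CPM in adults and were at 351025 and 211633 CPM at e13.5. Nearly all of the e13.5 sums was miR-143-3p, at 349750 and 210707 CPM, while both miR-145a arms were lower there than in adults. After TMM scaling, miR-143-3p in the e13.5 knockout (97293 CPM) lay inside the adult range of 72884 to 164481 CPM. The part of cell makeup in the stage difference was not tested, and in bulk libraries fewer cells of a type cannot be told apart from less RNA per cell.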

How the data were processed

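Small RNA libraries were prepared from total RNA with the NEXTFLEX kit, per the labels' protocols. The deposited table holds raw counts made by the authors, whole numbers with 1 column for each library. Per the submitters' processing notes, mm10 was the genome build. How reads were aligned, counted and shared among similar miRNAs is not given in the sources used here. The table held 1234 hairpin and 1974 mature rows. Mature rows with a total of at least 20, counts in 3 or more libraries and counts within 1% of another row were merged (22 rows, none of them members), and 1952 were kept. No row lacked a name, and every column belonged to a library of the series.

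Tests used R 4.3.3 and edgeR 4.0.16 (quasi-likelihood test, TMM, filterByExpr with a minimum count of 10, adjusted p of 0.05). At e13.5, log2 folds used the TMM factors of the fit over 6 libraries and a prior count of 2, for miRNAs reaching 10 counts in 1 of the libraries. DESeq2 1.42.0, limma 3.58.1 (voom), other scalings, no filter, unmerged rows, hairpin rows and leaving out each library were alternatives. The fit was also run on simulated counts for stage and adult genotype. Their spread was set lower than in these data, so that run does not show how the fit performs here. Ratios and arm shares were compared by exact permutation over libraries.

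Members and lists were chosen with earlier results of these data known. Named miRNAs were the members, the most abundant arm of each list miRNA and marker list, the 5 nearest profiles to each leading arm, and the miRNAs next in order of count. The pairs of neighbouring hairpins and the miRNAs printed with sequences were added after values were seen.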

Additional observations from a re-analysis of the deposited data

How the results depend on the processing

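Both arms of miR-145a were lower at e13.5 and past the threshold under every alternative run, with log2 folds of miR-145a-5p from −3.98 to −1.91. miR-143-3p did not pass between stages (log2 fold 0.60). It passed with median-of-ratios factors (1.38), library totals (1.66), library totals without miR-143 and miR-145a (2.01) and DESeq2 (1.38). With wild-type libraries alone its log2 fold was 1.36 and that of miR-143-5p −1.34. With knockout libraries alone these were 0.14 and −0.34. Leaving out 1 library gave −0.31 to 1.37 for miR-143-3p, and the cause was not tested. The miR-143-3p interaction of −1.69 ranged from −2.29 to −1.06 when 1 adult library was left out and passed once. At e13.5 the knockout to wild-type log2 fold of miR-143-3p was −0.73 with library totals, −1.16 with median-of-ratios factors, −1.01 with totals without the members and −1.22 with TMM factors of the 2 e13.5 libraries alone, the last chosen after seeing the data. For miR-145a-5p these were −0.59, −1.01, −0.87 and −1.07. List miRNAs that rose between stages numbered 7 under median-of-ratios factors and 7 under library totals, against 4. Over all miRNAs the stage count of 392 was 261 without the e13.5 knockout library and 231 with knockout libraries alone. The adult count of 4 was 9 without a filter, 0 with limma, 35 without knockout replicate 1 and 47 without knockout replicate 2. The count of 5 over both stages was 3 with hairpin rows and 3 without either adult wild-type library. The interaction count of 0 was 1 with library totals, 2 without a filter, 4 with DESeq2, and 87 and 40 without knockout replicates 1 and 2. With a replicate block in adults, the log2 folds were 0.23 for miR-143-3p and 0.09 for miR-145a-5p, no call among the members changed and 5 miRNAs passed in place of 4. The replicate numbers do not pair the libraries by the labels (correlation of deviations 0.18 over 162 miRNAs). Interactions without an e13.5 library could not be fitted.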
